A study of Homo sapiens with 26 samples.

Results

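The 10 genes described here encode receptors, transcription factors and feedback regulators of canonical Wnt signaling: the receptors LGR4 and LGR5, the feedback genes AXIN2, NKD1, RNF43 and ZNRF3, and the TCF/LEF factors LEF1, TCF7, TCF7L1 and TCF7L2. They were chosen as a pathway group by symbol, at a time when earlier results of these data were known. All 10 were found among the 19128 genes of the knockout tables and the 19117 genes of the table of parental lines. In GENCODE release 29 (GRCh38) LGR4 lies on chromosome 11, LGR5 on 12, AXIN2 and RNF43 on 17, NKD1 on 16, ZNRF3 on 22, LEF1 on 4, TCF7 on 5, TCF7L1 on 2 and TCF7L2 on 10.

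PolyA RNA was sequenced in 26 libraries of cultured lines of human small cell lung cancer. In 12 libraries, cells of NCI-H211, COR-L311, NCI-H526 or NCI-H1048 had been infected by lentivirus with either of 2 guide RNAs against POU2F3 (sgPOU2F3) or with a control guide (sgNeg). NCI-H1048 and NCI-H211 were harvested on day 4 after infection and COR-L311 and NCI-H526 on day 5, so that day and line cannot be told apart. The other 14 libraries came from uninfected, exponentially growing parental cells, 1 library per line, of those 4 lines and of DMS79, DMS114, NCI-H69, NCI-H82, NCI-H128, NCI-H146, NCI-H446, NCI-H510, NCI-H524 and NCI-H889. NCI-H1048 was grown in HITES medium and NCI-H128 in RPMI with more serum than the rest, while for the other lines the labels name RPMI with serum or HITES without saying which line had which. The deposited value for sgPOU2F3 is 1 column per line that combines both guides, so each line has 1 value per arm and the lines are the replicates. Nothing in the labels says that the libraries of 1 line came from separate cultures.

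In canonical Wnt signaling, ligands bind Frizzled and LRP receptors, beta-catenin escapes destruction and enters the nucleus, and TCF/LEF proteins on the DNA recruit it to activate target genes. RNF43 and ZNRF3 are ubiquitin ligases that remove Frizzled receptors from the cell surface, and R-spondins bound to LGR4 or LGR5 take these ligases away, which raises sensitivity to Wnt. AXIN2, a scaffold of the destruction complex, and NKD1, which binds dishevelled, are themselves targets of the pathway and dampen it. In the intestine LGR5 marks the stem cells from which all epithelial cells arise, among them tuft cells, whose development needs the POU-domain factor POU2F3.

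POU2F3 RNA in sgPOU2F3 cells stood at 6.95% of the sgNeg value in NCI-H211, 30.7% in NCI-H1048, 40.7% in NCI-H526 and 80.4% in COR-L311. Its level was lower in sgPOU2F3 cells in all 4 lines, and lowest by this measure in NCI-H211 (21.3 FPKM in sgPOU2F3 cells and 307 FPKM in sgNeg cells). FPKM is the number of fragments per kilobase of transcript, scaled to the mapped fragments of the library. From the steps between low values, the sgPOU2F3 columns were estimated to hold 20.0 to 32.7 M fragments (M, mega), the sgNeg columns 10.4 to 16.6 M and the parental columns 10.7 to 34.7 M. Of 6 small cell neuroendocrine markers, SYP and CHGA were under 1 FPKM in parental NCI-H1048 and NCI-H211, and INSM1 and NCAM1 were under 1 FPKM in DMS114. Of 5 fibroblast markers, DMS114 had LUM at 284 FPKM and DCN at 89.1 FPKM, with COL1A1 at 1.19 FPKM, PDGFRB at 3.22 FPKM and COL1A2 at 0.

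RefSeq promoters (GRCh38.p14, a build other than the hg19 of the deposited values; 250 bases before to 50 after the start site) were found for 6 of the 10 genes, 10 promoters in all, and the other genes are LGR5, AXIN2, NKD1 and ZNRF3. They were searched for the octamer bound by POU factors (ATGCAAAT, on the other strand ATTTGCAT) and for 2 core strings of the TCF/LEF site (CTTTGA and CTTTGT, on the other strand TCAAAG and ACAAAG). No string overlaps another motif in these promoters. The octamer stands in the promoter of LGR4 and in none of the other 9, against 623 of 35116 RefSeq promoters (1.77%). A TCF string stands in 4 promoters of 3 genes (RNF43, TCF7 and TCF7L2), against 9190 of all promoters (26.2%). Shown are upstream stretches for LGR4, the gene of the 7 tested with the smallest p in the knockout comparison, and for RNF43, the gene of the 10 with the smallest p between the parental groups. Both are given 5′ to 3′ on the minus strand, with the matched string in capitals. The LGR4 stretch ends at the base before the start site, and the RNF43 stretch of 189 bases ends 62 bases before it, where the first annotated transcript begins.
LGR4 (chr11:27472791-27473040): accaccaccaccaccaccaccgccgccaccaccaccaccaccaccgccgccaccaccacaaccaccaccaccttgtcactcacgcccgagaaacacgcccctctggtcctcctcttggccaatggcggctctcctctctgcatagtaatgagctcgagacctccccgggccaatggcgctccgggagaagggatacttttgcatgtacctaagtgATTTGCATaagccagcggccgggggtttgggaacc
RNF43 (chr17:58417596-58417784): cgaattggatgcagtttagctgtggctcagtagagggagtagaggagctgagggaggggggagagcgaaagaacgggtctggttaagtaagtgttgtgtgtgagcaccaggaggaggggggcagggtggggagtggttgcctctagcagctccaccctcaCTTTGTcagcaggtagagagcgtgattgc
In LGR4 the octamer lies 35 to 28 bases before the start site, and in RNF43 the TCF string lies 90 to 85 bases before it. A matched string is a description of the letters and not a measured binding site.

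The first comparison asked which of the 10 genes differ when POU2F3 is targeted. None passed the test across the 4 lines. On log2(FPKM + 1), over 2-fold higher in sgPOU2F3 cells were LGR4, AXIN2 and TCF7L2 in NCI-H211 and NKD1 in COR-L311. In NCI-H211 TCF7 and NKD1 were lower, at log2 ratios of -0.96 and -0.58. With limma on log2(FPKM + 1), line and arm as terms and a Benjamini-Hochberg adjusted p of 0.05 as the threshold, 7 of the 10 genes had enough signal to be tested (4 or more of the 8 columns at 1 FPKM or above), while LGR5, NKD1 and TCF7L1 did not. Of the 7, 0 were called in either direction and 0 had an unadjusted p under 0.05 in limma. The smallest p was 0.111, for LGR4 (adjusted p = 0.50). Over all 12387 genes tested, 2 were called, both higher, which is 0.0161%, and 1456 had an unadjusted limma p under 0.05. The median of the mean log2 ratios was 0.14 over the 7 genes and -0.02 over all genes tested. A mean ratio over 4 lines that misses the threshold does not show that a gene was the same in both arms.

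**Figure D1:**
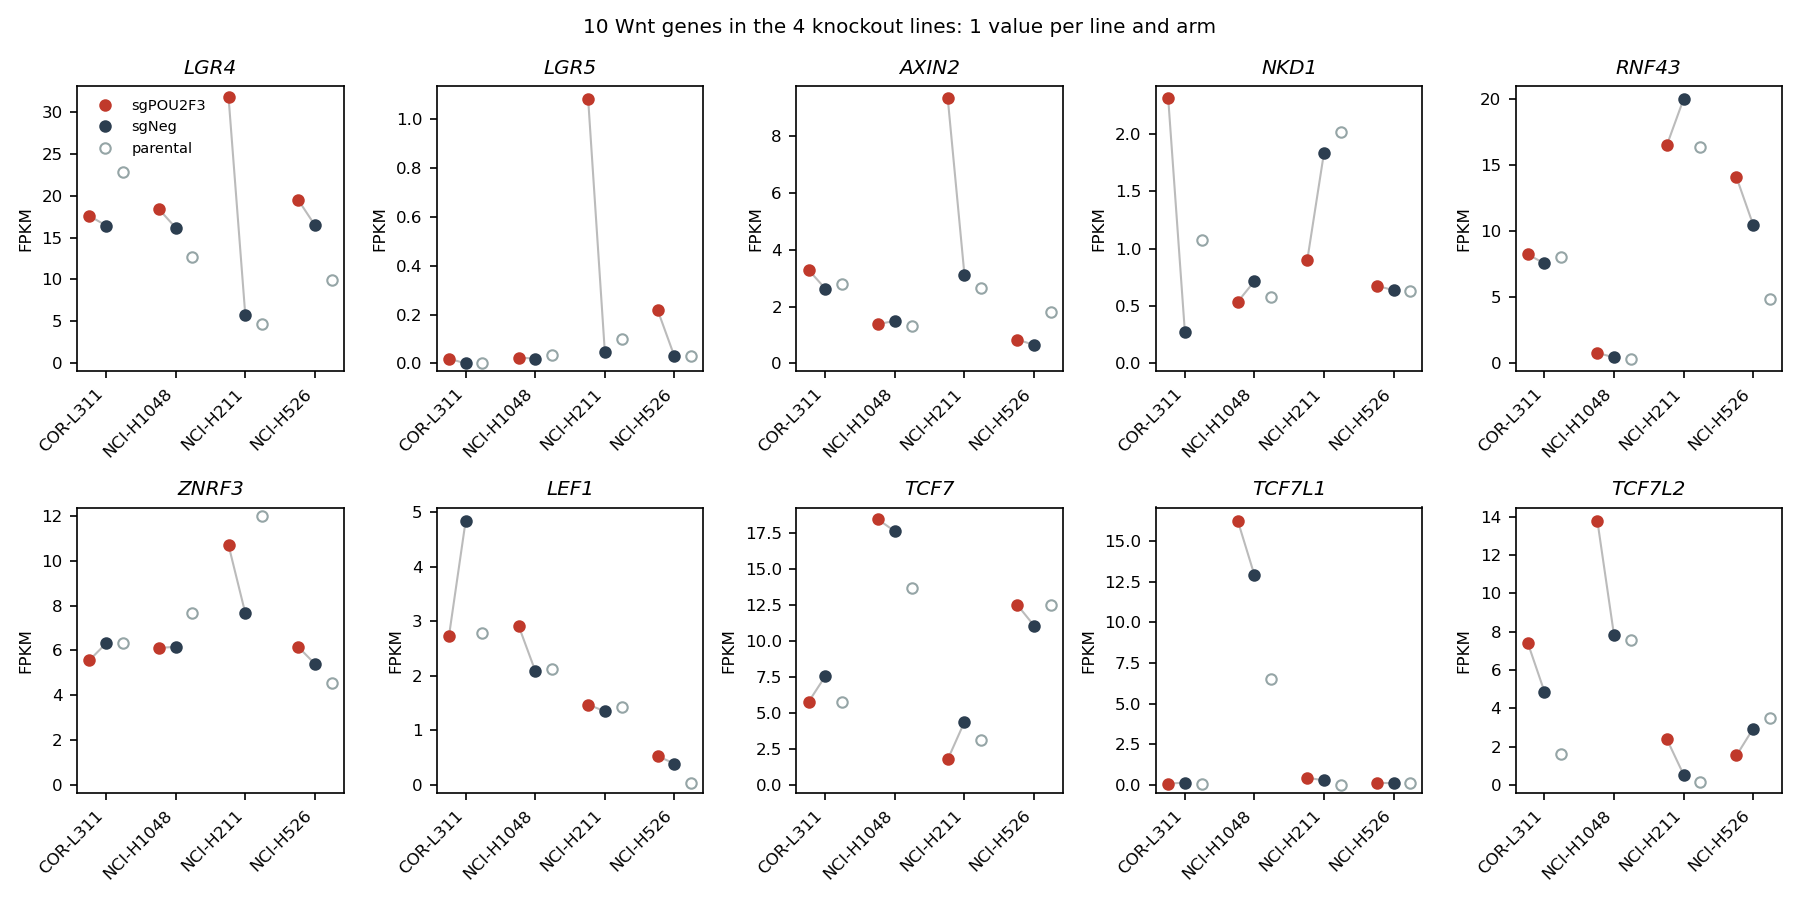
FPKM of the 10 genes (vertical axes, linear, a scale per gene) in the 4 knockout lines, with 1 point each for sgPOU2F3 cells (red), sgNeg cells (dark) and parental cells (open), and a line joining sgPOU2F3 to sgNeg. LGR4, LGR5 and AXIN2 have their widest gap in NCI-H211 and NKD1 in COR-L311, while RNF43 and TCF7L1 differ more between lines than between arms.

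LGR4, a receptor for R-spondins, was present in every column. It measured 17.6 FPKM in sgPOU2F3 cells and 16.4 FPKM in sgNeg cells of COR-L311, 18.4 FPKM in sgPOU2F3 and 16.2 FPKM in sgNeg cells of NCI-H1048, and 19.5 FPKM in sgPOU2F3 and 16.5 FPKM in sgNeg cells of NCI-H526. In NCI-H211 it measured 31.7 FPKM in sgPOU2F3 cells and 5.81 FPKM in sgNeg cells, a 5.46-fold difference. LGR4 was thus higher in sgPOU2F3 cells in 4 of 4 lines, with NCI-H211 far ahead: it had the highest LGR4 of the 4 lines in sgPOU2F3 cells and the lowest in sgNeg cells. The mean log2 ratio was 0.69 ± 1.05 (SD, n = 4 lines), and 0.17 without NCI-H211. Of all genes tested, 9.81% were higher in 4 of 4 lines and 12.9% lower in 4 of 4 lines. Of the 7 tested genes LGR4 was the 1 that was higher in all 4 lines, and 0 were lower in all 4.

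LGR5, the stem cell receptor of the same family, was near the floor in sgNeg cells of all 4 lines. In NCI-H211 it measured 1.08 FPKM in sgPOU2F3 cells and 0.0458 FPKM in sgNeg cells, which corresponds to an estimated 125 fragments in sgPOU2F3 and 2.1 in sgNeg cells. In NCI-H526 it measured 0.217 FPKM in sgPOU2F3 cells (about 31.3 fragments) and 0.0291 FPKM in sgNeg cells (about 2.13 fragments). In NCI-H1048 it stood at 0.0240 FPKM in sgPOU2F3 and 0.0198 FPKM in sgNeg cells, and in COR-L311 at 0.0198 FPKM in sgPOU2F3 cells with sgNeg cells listed at 0. LGR5 was below the filter, and without a filter its mean log2 ratio of 0.32 had p = 0.138 in limma (adjusted p = 0.59). In COR-L311 and NCI-H1048 both arms lie at about 2 fragments or fewer, so that no difference was detectable at this depth.

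AXIN2, often read as a general reporter of beta-catenin activity, measured 9.32 FPKM in sgPOU2F3 cells and 3.12 FPKM in sgNeg cells of NCI-H211, a 2.98-fold difference. In COR-L311 it measured 3.29 FPKM in sgPOU2F3 and 2.63 FPKM in sgNeg cells, in NCI-H526 0.839 FPKM in sgPOU2F3 and 0.653 FPKM in sgNeg cells, and in NCI-H1048 1.39 FPKM in sgPOU2F3 and 1.50 FPKM in sgNeg cells. AXIN2 was higher in sgPOU2F3 cells in 3 of 4 lines, by a wide margin in NCI-H211 alone. Its mean log2 ratio was 0.41 ± 0.62 (SD, n = 4 lines; limma adjusted p = 0.54), and 0.11 without NCI-H211.

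NKD1 went in opposite directions by line. In COR-L311 it measured 2.32 FPKM in sgPOU2F3 cells and 0.275 FPKM in sgNeg cells, an 8.41-fold difference, with parental cells in between at 1.07 FPKM in their own table. In NCI-H211 it was lower, at 0.903 FPKM in sgPOU2F3 and 1.84 FPKM in sgNeg cells. It was close to level in the remaining lines, at 0.537 FPKM in sgPOU2F3 and 0.717 FPKM in sgNeg cells of NCI-H1048, and at 0.676 FPKM in sgPOU2F3 and 0.638 FPKM in sgNeg cells of NCI-H526. The mean log2 ratio of 0.17 ± 0.85 (SD, n = 4 lines) is smaller than the spread between lines, and was -0.23 without COR-L311. The gene was below the filter, and without a filter it had a limma p of 0.633 (adjusted p = 0.85).

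The ligases RNF43 and ZNRF3 differed little between arms. RNF43 measured 16.5 FPKM in sgPOU2F3 and 20.0 FPKM in sgNeg cells of NCI-H211, and 14.1 FPKM in sgPOU2F3 and 10.5 FPKM in sgNeg cells of NCI-H526. It measured 8.24 FPKM in sgPOU2F3 and 7.57 FPKM in sgNeg cells of COR-L311, and 0.801 FPKM in sgPOU2F3 and 0.460 FPKM in sgNeg cells of NCI-H1048. The line set its level: NCI-H1048 was the low line in both arms, while no line differed 2-fold between arms. ZNRF3 lay between 5.56 and 10.7 FPKM in sgPOU2F3 cells and between 5.40 and 7.67 FPKM in sgNeg cells, with its largest log2 ratio, 0.43, in NCI-H211. Mean log2 ratios were 0.14 ± 0.29 for RNF43 (limma adjusted p = 0.72) and 0.11 ± 0.25 for ZNRF3 (limma adjusted p = 0.77), each over 4 lines with the SD.

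Among the TCF/LEF factors, TCF7L2 had the largest ratios. It measured 2.38 FPKM in sgPOU2F3 and 0.538 FPKM in sgNeg cells of NCI-H211 (4.43-fold), 13.8 FPKM in sgPOU2F3 and 7.81 FPKM in sgNeg cells of NCI-H1048, and 7.41 FPKM in sgPOU2F3 and 4.87 FPKM in sgNeg cells of COR-L311. In NCI-H526 it was lower, at 1.54 FPKM in sgPOU2F3 and 2.94 FPKM in sgNeg cells. TCF7L2 was thus higher in sgPOU2F3 cells in 3 of 4 lines, and its mean log2 ratio was 0.44 ± 0.76 (SD, n = 4 lines; limma adjusted p = 0.57). It was 0.21 without NCI-H211 and 0.80 without NCI-H526 (limma p = 0.0074, adjusted p = 0.66). In COR-L311 the sgNeg cells also stood apart from the parental library, where TCF7L2 was at 1.59 FPKM. The 2 values stand in separately made tables, so infection and table cannot be told apart.

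TCF7, the factor with the highest level in sgNeg cells of every line, measured 1.77 FPKM in sgPOU2F3 and 4.38 FPKM in sgNeg cells of NCI-H211, a log2 ratio of -0.96. In COR-L311 it measured 5.78 FPKM in sgPOU2F3 and 7.57 FPKM in sgNeg cells. It was slightly higher in the remaining lines, at 18.5 FPKM in sgPOU2F3 and 17.7 FPKM in sgNeg cells of NCI-H1048, and at 12.5 FPKM in sgPOU2F3 and 11.1 FPKM in sgNeg cells of NCI-H526. The mean log2 ratio was -0.27 ± 0.51 (SD, n = 4 lines; limma adjusted p = 0.62), and -0.038 without NCI-H211.

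LEF1 measured 2.73 FPKM in sgPOU2F3 and 4.84 FPKM in sgNeg cells of COR-L311, and was higher in sgPOU2F3 cells of the remaining lines by log2 ratios of 0.07 to 0.34. Its mean log2 ratio was -0.02 ± 0.43 (SD, n = 4 lines; limma adjusted p = 0.97). TCF7L1, which in many settings represses Wnt targets, was above 1 FPKM in NCI-H1048 alone, at 16.2 FPKM in sgPOU2F3 and 12.9 FPKM in sgNeg cells. In the other 3 lines it stayed between 0.0792 and 0.444 FPKM in sgPOU2F3 cells and between 0.110 and 0.283 FPKM in sgNeg cells, and without a filter its mean log2 ratio of 0.10 had p = 0.376 in limma (adjusted p = 0.71).

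FPKM is a value per length, so the 4 factors can be set beside each other. The sum of their levels in NCI-H211 was similar in both arms, at 6.07 FPKM in sgPOU2F3 and 6.55 FPKM in sgNeg cells, but its make-up differed. TCF7L2 made up 39.2% of the sum in sgPOU2F3 cells and 8.20% in sgNeg cells, and TCF7 29.2% in sgPOU2F3 cells and 66.9% in sgNeg cells. In COR-L311 TCF7L2 made up 46.3% in sgPOU2F3 cells and 27.9% in sgNeg cells. TCF7L2 was the leading factor in sgPOU2F3 cells of these 2 lines, whereas TCF7 led in sgPOU2F3 cells of NCI-H1048 and NCI-H526 and in sgNeg cells of all 4 lines. These shares have no replicate within a line and were not tested.

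**Figure D2:**
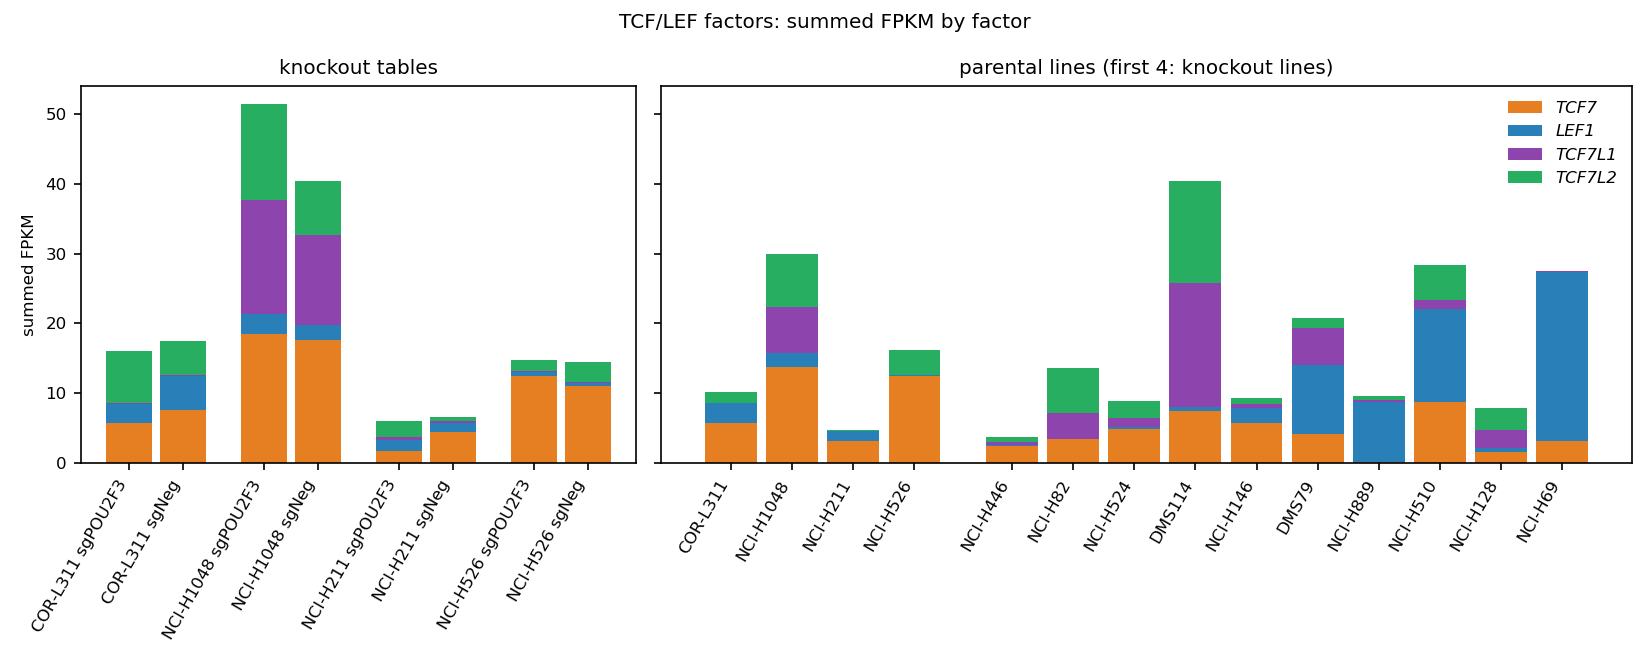
FPKM of TCF7, LEF1, TCF7L1 and TCF7L2 stacked (vertical axis, summed FPKM, from 0), in sgPOU2F3 and sgNeg cells of each knockout line at left and in the 14 parental lines at right. The TCF7L2 share in NCI-H211 is 39.2% in sgPOU2F3 and 8.20% in sgNeg cells, and LEF1 makes up nearly the whole sum in parental NCI-H889 and NCI-H69.

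Counted within each line by size alone, with no test, 4 of the 40 ratios were 2-fold or more (a log2 ratio of FPKM + 1 of at least 1 in size), all higher in sgPOU2F3 cells. In NCI-H211 they were LGR4, AXIN2 and TCF7L2, 3 of 10 genes, where 9.13% of the genes tested were past 2-fold in either direction. In COR-L311 it was NKD1, 1 of 10, against 4.73% of all. NCI-H1048 and NCI-H526 had none among the 10, against 1.55% and 1.78% of all genes. With a pseudocount of 0.1 in place of 1 the count was 7, adding LGR5 in NCI-H211 and NCI-H526 and, as lower, TCF7 in NCI-H211. The share of all genes past 2-fold at that pseudocount is not given here, so the rise is not a result about these 10 genes. The median log2 ratio of the 10 genes was 0.30 in NCI-H211, 0.16 in NCI-H526, 0.12 in NCI-H1048 and 0.06 in COR-L311.

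In NCI-H211 the marker lists differed between arms as well. The 5 tuft cell markers summed to 81.2 FPKM in sgPOU2F3 and 971 FPKM in sgNeg cells, and the 4 epithelial markers to 3135 FPKM in sgPOU2F3 and 1150 FPKM in sgNeg cells. The 6 neuroendocrine markers summed to 17.3 FPKM in sgPOU2F3 and 63.8 FPKM in sgNeg cells, with 4 of 6 under 1 FPKM in both arms. The 5 fibroblast markers summed to 14.4 FPKM in sgPOU2F3 and 8.23 FPKM in sgNeg cells, mostly LUM at 12.3 FPKM in sgPOU2F3 and DCN at 7.26 FPKM in sgNeg cells, and the endothelial and leukocyte lists of 3 genes each summed to at most 1.16 FPKM in sgPOU2F3 and 0.76 FPKM in sgNeg cells. Their part in the values of LGR4, AXIN2 and TCF7L2 was not tested. In a bulk sample, more RNA per cell and more cells with the RNA cannot be told apart.

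The sgNeg and parental cells of a line give a background for handling, though they stand in tables that were made separately. Of the 10 genes, 1 was 2-fold or more apart between sgNeg and parental cells on log2(FPKM + 1). This was TCF7L2 in COR-L311, with a log2 ratio of 1.18. On that scale 4.28% of all genes were that far apart in NCI-H1048, 4.97% in NCI-H211, 5.01% in NCI-H526 and 6.28% in COR-L311. On linear FPKM further gaps were past 2-fold. NKD1 in COR-L311 was at 0.275 FPKM in sgNeg and 1.07 FPKM in parental cells. In NCI-H526 AXIN2 was at 0.653 and 1.81 FPKM and RNF43 at 10.5 and 4.84 FPKM, in the same order. LEF1 in NCI-H526 was at 0.392 FPKM in sgNeg (about 21.3 fragments) and 0.0367 FPKM in parental cells (about 4.03 fragments). Near the floor, again sgNeg first, TCF7L1 was at 0.283 and 0.0218 FPKM in NCI-H211 and at 0.149 and 0.0344 FPKM in COR-L311. LGR5 in NCI-H211 was at 0.0458 FPKM in sgNeg and 0.0986 FPKM in parental cells. In NCI-H211 the log2 ratio of sgNeg to parental cells was 0.26 for LGR4, 0.17 for AXIN2 and 0.40 for TCF7L2, which was at 0.538 FPKM in sgNeg and 0.165 FPKM in parental cells.

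Between harvest days, no gene was called in limma on the 4 ratios (0 of 12387, of which 701 had an unadjusted p under 0.05). The smallest p among the 7 tested genes was 0.057, for TCF7L2, whose mean log2 ratio was 0.999 higher in the day 4 lines than in the day 5 lines (adjusted p = 0.82). LGR4 differed by 1.06 in the same direction (limma p = 0.157). For LGR4 this rests on NCI-H211, since NCI-H1048, the other day 4 line, had a log2 ratio of 0.17 and the day 5 lines 0.09 and 0.23.

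The second comparison set the parental cells of the 4 knockout lines, in which POU2F3 was at 189 to 387 FPKM, against the 10 other lines, in which it was at most 0.608 FPKM. RNF43 was higher in the knockout lines and LGR5, AXIN2, NKD1 and TCF7L1 had higher medians in the other lines, but none of the 10 genes passed the test. With 4 or more of the 14 libraries at 1 FPKM or above as the filter, 9 of the 10 were tested by limma (LGR5 was not), 0 were called and 1, RNF43, had an unadjusted p under 0.05. Over all 13226 genes tested, 28 were called higher and 5 lower in the knockout lines, which is 0.25%, and 1146 had an unadjusted limma p under 0.05. The median difference was 0.01 over the 9 genes and -0.00 over all genes tested, in log2 units. With 1 library per line, the spread between lines is known but not that between cultures of a line, so the order of neighbouring lines is not established.

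**Figure D3:**
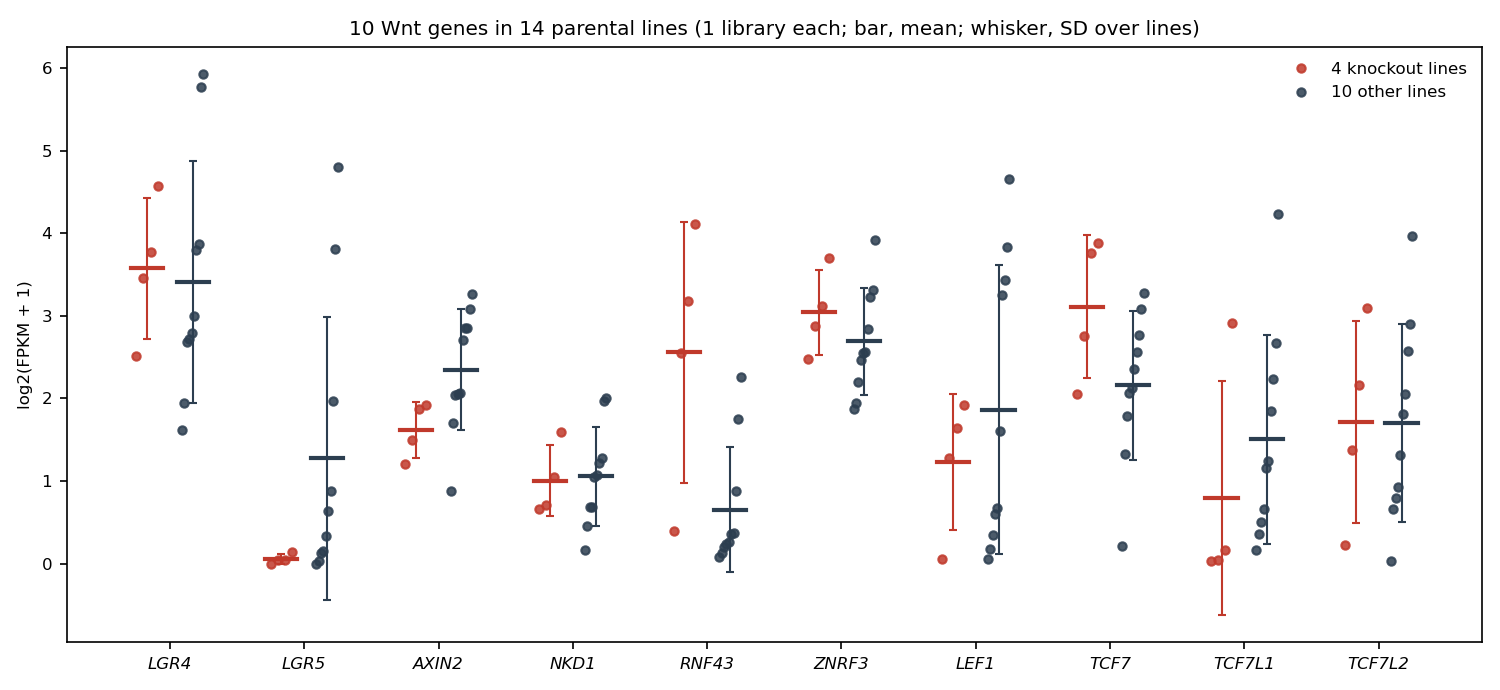
Levels of the 10 genes as log2(FPKM + 1) (vertical axis) in parental cells of the 4 knockout lines (red, left) and the 10 other lines (dark, right), 1 point per line, with the mean and SD over lines. RNF43 has 3 of its 4 red points above every dark point, and LGR5 is at or near 0 in all red points.

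RNF43 measured 16.3 FPKM in NCI-H211, 8.05 FPKM in COR-L311, 4.84 FPKM in NCI-H526 and 0.310 FPKM in NCI-H1048, and in the other lines 0.0585 to 3.80 FPKM with a median of 0.238 FPKM. The groups overlap through NCI-H1048 alone: the remaining knockout lines lie above every other line, the highest of which were NCI-H524 and DMS79 (2.36 FPKM). The mean log2 difference was 1.90 with an SE of 0.58 (limma adjusted p = 0.27), and an exact two-sided permutation test over the 1001 arrangements of the lines gave p = 0.0140. Without NCI-H1048 the difference was 2.63 and the limma adjusted p 0.039, without NCI-H211 1.39 and 0.65, and without COR-L311 1.70 and 0.55. Over all 14 lines left out in turn the adjusted p ran from 0.039 to 0.65. ZNRF3, the partner ligase, had no such split, at 4.55 to 12.01 FPKM in the knockout lines and 2.67 to 14.2 FPKM in the other lines (log2 difference 0.35, limma adjusted p = 0.87). Per length, RNF43 thus exceeded ZNRF3 in COR-L311, NCI-H211 and NCI-H526, with ratios of RNF43 to ZNRF3 of 1.06 to 1.36, whereas ZNRF3 exceeded RNF43 in NCI-H1048 and in all 10 other lines.

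LGR5 stayed at or below 0.0986 FPKM in the 4 knockout lines. In the other lines it ran from 0 to 26.8 FPKM with a median of 0.411 FPKM, and only NCI-H889 (26.8 FPKM), NCI-H69 (13.0 FPKM) and NCI-H524 (2.91 FPKM) were above 1 FPKM. In 7 of the 10 other lines it lay above all knockout lines. The lowest of the 7, DMS114, was at 0.110 FPKM (about 6.44 fragments). NCI-H211 was at 0.0986 FPKM (about 7.31 fragments), so the order of these lines is not established. LGR5 was below the filter, and the exact two-sided permutation test gave p = 0.056. LGR4 was expressed in all 14 lines, at 4.69 to 22.8 FPKM in the knockout lines and 2.07 to 59.9 FPKM in the other lines, with NCI-H69 (59.9 FPKM) and NCI-H146 (53.6 FPKM) highest and DMS114 lowest (log2 difference 0.17, limma adjusted p = 0.97).

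AXIN2 measured 2.78 FPKM in COR-L311, 2.65 FPKM in NCI-H211, 1.81 FPKM in NCI-H526 and 1.30 FPKM in NCI-H1048. In the other lines it ran from 0.840 to 8.63 FPKM with a median of 4.35 FPKM, and 8 of the 10 lay above all knockout lines. The log2 difference was -0.73 with an SE of 0.42 (limma adjusted p = 0.68). NKD1 spanned 0.583 to 2.02 FPKM in the knockout lines and 0.119 to 3.01 FPKM in the other lines (log2 difference -0.05, limma adjusted p = 0.98), so the range of the other lines enclosed that of the knockout lines.

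TCF7 measured 13.7 FPKM in NCI-H1048, 12.5 FPKM in NCI-H526, 5.75 FPKM in COR-L311 and 3.15 FPKM in NCI-H211, and 0.158 to 8.73 FPKM in the other lines with a median of 3.76 FPKM. NCI-H1048 and NCI-H526 had the highest levels of all 14 lines (log2 difference 0.95, limma adjusted p = 0.66). LEF1, which is prominent in lymphoid cells and in Wnt-driven tumours, reached 24.3 FPKM in NCI-H69, 13.3 FPKM in NCI-H510, 9.84 FPKM in DMS79 and 8.57 FPKM in NCI-H889, and was at most 2.78 FPKM in the knockout lines and at most 2.04 FPKM in the remaining other lines (log2 difference -0.64, limma adjusted p = 0.89). LEF1 thus split the other lines among themselves rather than the groups.

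TCF7L1 and TCF7L2 were both highest in DMS114, at 17.8 and 14.6 FPKM, and in the knockout lines both were highest in NCI-H1048, at 6.53 and 7.57 FPKM. TCF7L1 was at 0.0218 to 0.121 FPKM in the other 3 knockout lines and at 0.117 to 17.8 FPKM in the other 10 lines (log2 difference -0.72, limma adjusted p = 0.84). TCF7L2 spanned 0.165 to 7.57 FPKM in the knockout lines and 0.0241 to 14.6 FPKM in the other lines (log2 difference 0.01, limma adjusted p = 0.999). DMS114 was at the same time the line with the highest fibroblast marker sum, 377 FPKM over 5 genes against at most 46.1 FPKM elsewhere. That sum was nearly all LUM and DCN, while COL1A2 was at 0 and COL1A1 and PDGFRB were higher in at least 1 other line. DMS114 also had a neuroendocrine sum of 29.3 FPKM over 6 genes, the lowest of the 14. NCI-H1048 had a fibroblast sum of 6.70 FPKM and a neuroendocrine sum of 35.1 FPKM. The part of either in the TCF7L1 and TCF7L2 levels was not tested.

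Of the 4 factors, TCF7 led in the parental cells of all 4 knockout lines and in 3 of the other lines, NCI-H146, NCI-H446 and NCI-H524. LEF1 led in 4 of the other lines, with 89.3% of the summed FPKM in NCI-H889 and 87.9% in NCI-H69. TCF7L2 led in NCI-H82 and NCI-H128, and TCF7L1 in DMS114 with 44.0%. The sum of the 4 ran from 3.72 FPKM in NCI-H446 to 40.4 FPKM in DMS114.

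Across the 14 lines the 10 genes did not vary as 1 block. LEF1 had the largest SD of log2(FPKM + 1) among the 9 tested, 1.54, at the 89.9th percentile of all tested genes, and NKD1 the smallest, 0.54, at the 26.9th percentile, where the median gene had 0.70. Of the 45 pairs, TCF7L1 and TCF7L2 were the most alike (Pearson's r = 0.79, Spearman's rho = 0.74, n = 14 lines), followed by LGR4 with LEF1 (r = 0.56) and TCF7 with TCF7L2 (r = 0.54). The feedback genes AXIN2 and NKD1 had r = 0.47, and AXIN2 had r = 0.16 with ZNRF3 and -0.16 with RNF43. LGR5 and TCF7 were the most opposed, with r = -0.67. These values describe 14 libraries that share their preparation and scaling and carry no p.

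The genes most like each of the 9 over the 14 lines, out of 13225 compared, were none of them among the Wnt genes listed. For LGR4 they were NCOA7 (r = 0.90), SCN9A and SOWAHA, for AXIN2 ONECUT1 (r = 0.88), SGTB and PABPC4L, and for NKD1 MCTS1 (r = 0.82), MTMR4 and INTS2. For RNF43 they were GNG13 (r = 0.88), OLIG1 and TANC2, and for ZNRF3 DHRS7 (r = 0.85) and NAT1. For LEF1 they were HIST1H2BJ (r = 0.92), TSPAN1 and ZSCAN31, and for TCF7 AP5B1 (r = 0.85), PWWP2B and YBX2. For TCF7L1 they were ECEL1 (r = 0.90), ARF4 and COL6A2, and for TCF7L2 MFGE8 (r = 0.89), C10orf88 and PDE8A. These are the highest of many correlations over 14 points and are given as a description.

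To place the 10 genes in their pathway, 96 other Wnt genes were listed by role. In the knockout comparison 67 of them were tested and 0 were called by limma. At an unadjusted limma p under 0.05, 8 were higher and 3 lower in sgPOU2F3 cells, against 1456 of all 12387 genes in either direction. The median of the mean log2 ratios was 0.06. In 4 of 4 lines, 14 of the 67 were higher and 6 lower, where 9.81% and 12.9% of all genes were. Of the 67, 12 were 2-fold or more apart in NCI-H211 (9.13% of all genes), 5 in NCI-H526 (1.78%), 7 in NCI-H1048 (1.55%) and 9 in COR-L311 (4.73%). For each role, the genes named next are those with the largest mean log2 ratio in size, with the SD over 4 lines.

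Of the ligands, most were below the filter (6 of 23 tested). WNT5A, a ligand known mainly for signaling without beta-catenin, had a mean log2 ratio of 0.77 ± 0.76 and was higher in 4 of 4 lines, and the R-spondin RSPO4 had -0.48 ± 0.50. WLS, which escorts Wnt ligands to the cell surface, had 1.49 ± 1.47 and was higher in 4 of 4 lines, most in NCI-H211 at 3.58 (mean 0.80 without that line). PORCN, the acyltransferase of Wnt ligands, had -0.21 ± 0.14. Among 16 tested receptors and co-receptors, the Frizzled gene FZD7 had 1.23 ± 1.0 (0.76 without NCI-H211) and was higher in 4 of 4 lines, and LGR6, the third receptor of the LGR4 family, had 0.72 ± 1.18.

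Of 7 tested secreted inhibitors, SOSTDC1 had 2.13 ± 2.43, with 5.47 in NCI-H211 and 2.39 in NCI-H526 (mean 1.02 without NCI-H211), and KREMEN2, a receptor for the DKK inhibitors, had -0.51 ± 0.55. The dishevelled genes DVL1 and DVL3 had -0.37 ± 0.38 and 0.19 ± 0.15. In the destruction complex and its regulators, the kinase gene GSK3B had 0.29 ± 0.44 and FBXW11, a ubiquitin ligase subunit, -0.25 ± 0.25. Of the nuclear cofactors, the corepressor gene TLE2 had 0.65 ± 0.72 and BCL9L, which bridges to beta-catenin, 0.61 ± 0.46. None of these passed the test, and all had limma adjusted p values above 0.05.

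Among 11 other target and feedback genes, CD44, an adhesion receptor, had 1.94 ± 0.68 and was higher in 4 of 4 lines (limma adjusted p = 0.23), and DACT1, which binds dishevelled, had 1.31 ± 1.55 (0.71 without NCI-H211). The log2 ratios of CD44 were 2.40 in NCI-H1048 and 2.28 in NCI-H211 on day 4, and 2.15 in COR-L311 and 0.92 in NCI-H526 on day 5. Fitted on the day 5 lines by themselves, which called 115 of all genes, CD44 passed (limma adjusted p = 0.021), and in a fit on the day 4 lines it did not. Each of these fits has both lines of 1 day and no more. The day 5 ratios were the smaller and the wider apart, so the pass does not set day 5 apart from day 4. The median of the 11 was -0.33. NKD1 and its close relative NKD2 differed in pattern: for NKD2 the mean log2 ratio was -0.75 ± 0.36, negative in every line (limma p = 0.004, adjusted p = 0.38). NKD2 was added to the named genes after its values were seen.

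**Figure D4:**
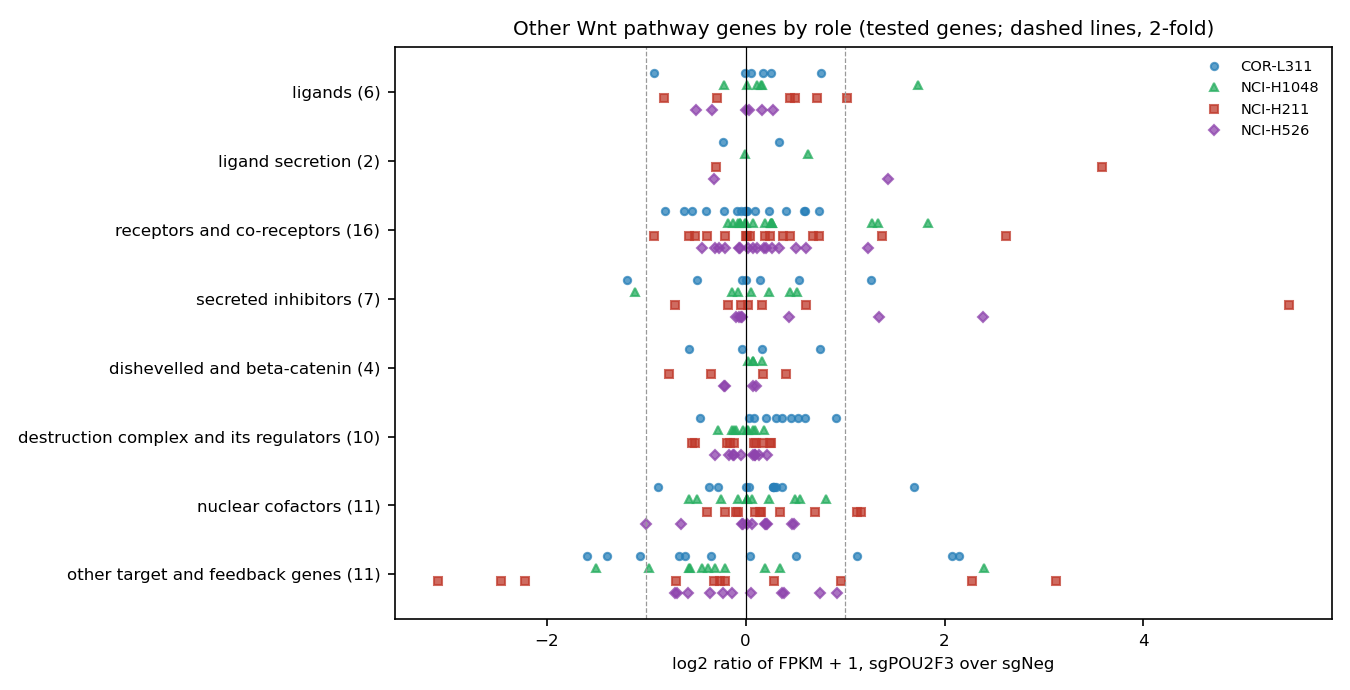
Log2 ratios of FPKM + 1, sgPOU2F3 over sgNeg (horizontal axis), of the 67 tested genes of the wider Wnt list by role (rows, number of genes in brackets), with 1 symbol and colour per line and dashed lines at 2-fold. Most points lie inside 2-fold, and the widest, SOSTDC1 at 5.47, is in NCI-H211.

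In the parental comparison 74 of the 96 were tested and 1 was called. ASCL2, a basic helix-loop-helix factor of intestinal stem cells that also marks tuft-like small cell cancer and stands on the tuft cell marker list, was at 4.98 to 187 FPKM in the knockout lines and 0 to 4.04 FPKM in the other lines (log2 difference 5.35, SE 0.72, limma adjusted p = 0.0015). The groups did not overlap. EPHB3, an ephrin receptor and Wnt target in the gut, was next in its role at 7.18 to 36.6 FPKM in the knockout lines and 0.0881 to 13.7 FPKM in the other lines (log2 difference 3.03, limma adjusted p = 0.067). In the knockout comparison both were lower in sgPOU2F3 cells in 4 of 4 lines without passing, ASCL2 at a mean log2 ratio of -1.04 ± 1.39 and EPHB3 at -0.84 ± 0.92. Both were lowest in NCI-H211, at -3.09 and -2.22, and without that line the means were -0.35 and -0.38.

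Of the other roles in the parental comparison, RSPO4 and SOSTDC1 had higher mean levels in the knockout lines, by log2 differences of 2.54 and 2.28. WNT11, WLS, FZD2, FZD7, FRZB, APC2, BTRC, PORCN and DVL3 had lower ones, by -1.85, -2.59, -1.40, -1.22, -1.10, -1.09, -0.39, -0.17 and -0.40 in that order. The corepressor genes TLE2 and TLE4 went opposite ways at -2.18 and 1.19, and DVL1 had 0.40. None of these 14 genes passed the test (limma adjusted p of 0.46 or more). Levels differed widely among the knockout lines for RSPO4, at 0.0204 to 77.1 FPKM, and for SOSTDC1, at 0.532 to 190 FPKM. Without NCI-H1048 the SOSTDC1 difference was 0.63. The median difference over the 74 was -0.08 in log2 units.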

How the data were processed

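RNA was measured in 26 polyA libraries. The authors deposited FPKM in 5 tables, 1 a knockout line and 1 with all 14 parental lines, and the last is called RPKM in the labels. Per the submitters' processing notes, TopHat2, Cufflinks and Cuffdiff were used with hg19, while versions, annotation and scaling are not given in the sources used here. Each sgPOU2F3 column combines 2 guides by a step not given in the files. No counts were used. The depth was estimated here from the steps between low FPKM values of genes with 1 transcript (GENCODE release 29, assumed fragment length 200), at 10.4 to 34.7 M fragments (M, mega) per column. Numbers of fragments per gene are therefore estimates, and low genes are more precise in the deeper sgPOU2F3 columns.

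Values were taken as log2(FPKM + 1), so fold changes of low genes are understated on this scale; folds between FPKM values are linear. Tests were made with limma 3.58.1 (R 4.3.3), with a variance trend, on all genes that reached 1 FPKM in 4 or more columns, with Benjamini-Hochberg adjustment over all of them and a threshold of 0.05. The knockout fit had line and arm as terms on 8 columns (3 residual degrees of freedom), the parental fit 4 lines against 10 (12 residual degrees of freedom), and the day test used the 4 ratios. Within a line no test is possible. Exact permutation tests used SciPy 1.17.1, and the smallest two-sided p they allow in the parental comparison is 0.002. The limma steps were tested on simulated data. P-values measure the spread between lines.

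The 10 genes and the lists were chosen with earlier results of these data known. Named were the 10 genes, POU2F3, from the 96 other Wnt genes each gene past the threshold and the 2 tested genes per role with the largest mean log2 difference in size, and for each of the 10 that passed the parental filter the 3 genes with the highest Pearson correlation, of which 1 is not reported here. Marker lists named 6 neuroendocrine, 5 tuft cell, 4 epithelial, 5 fibroblast, 3 leukocyte and 3 endothelial genes. Other pseudocounts, filters, scalings, variance without a trend, single harvest days and leaving out each line were tried.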

Additional observations from a re-analysis of the deposited data

Results flagged for a closer look

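In 30 groups of 4 or 10 values examined for a sample far from the others, of which chance flags about 1 in 20, 2 values stood out. The log2 ratio of LGR4 in NCI-H211, 2.26, lay far from those of the other 3 lines (0.09 to 0.23). The level of TCF7L1 in parental NCI-H1048, 6.53 FPKM, lay far from those of the other 3 knockout lines (0.0218 to 0.121 FPKM). NKD1 went in opposite directions by harvest day: it was lower in sgPOU2F3 cells in both day 4 lines and higher in both day 5 lines. The log2 ratios were -0.58 in NCI-H211 and -0.16 in NCI-H1048 on day 4, and 1.38 in COR-L311 and 0.03 in NCI-H526 on day 5. NCI-H526 was thus close to level. The difference in mean log2 ratio was -1.07, day 4 minus day 5. In limma without a filter, chosen after seeing the data, that difference had p = 0.128 (adjusted p = 0.80). Day and line cannot be told apart.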

How the results depend on the processing

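Among the 10 genes, the count called in the knockout comparison stayed 0 under all 13 alternatives tried, and the day comparison stayed at 0 under its 3. In the parental comparison the count was 0 to 1 when each line was left out, the 1 being RNF43 without NCI-H1048, and RNF43 was also the 1 gene under 0.05 in the unadjusted exact permutation test; the cause was not tested. The count of 2-fold ratios within lines was 7 with a pseudocount of 0.1, 6 with 0.5 and 5 after centring, against 4 as reported. The shares of all genes under these settings are not given here. Of the wider Wnt list, 1 gene was called in the day 5 lines alone (CD44). In the parental comparison 0 were called with a filter at an FPKM of 5, which ASCL2 did not pass, so that it was not tested. When each line was left out 1 to 2 were called, EPHB3 joining ASCL2 without NCI-H1048 or without NCI-H510. Over all genes, the 2 knockout calls became 0 with a pseudocount of 0.1 or 0.5, with no filter, with no variance trend, in the day 4 lines alone and without any 1 line (0 to 0), 1 after quantile normalization and 115 in the day 5 lines alone, and the 33 parental calls ranged from 21 to 50 when each line was left out. Of the knockout and parental values of the 10 genes, none of which was called, these changed direction: LEF1 in the knockout had 0.031 with a pseudocount of 0.1, 0.21 in the day 4 lines and -0.15 to 0.18 when each line was left out, TCF7L2 had -0.057 in the day 5 lines, ZNRF3 had -0.0023 to 0.19 when each line was left out, and NKD1, which was below the filter, -0.23 to 0.42. In the parental comparison, NKD1 had 0.021 with a pseudocount of 0.1, 0.015 after quantile normalization and -0.25 to 0.059 when each line was left out, where LGR4 had -0.17 to 0.52 and TCF7L2 -0.45 to 0.51. The knockout fit is paired by line. No paired analysis was possible by guide number because the 2 guides stand in 1 column. A p adjusted over the 10 genes was not run. Levels under about 0.05 FPKM rest on a few fragments.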
